A study of Mus musculus with 4 samples.

Results

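The 50 genes described here encode proteins that make ribosomes in the nucleolus, and they were taken as a list of gene symbols sorted by the step at which each protein acts. For each gene the probe sets that the array's annotation assigns to that symbol alone were kept, and the brightest of them, by its mean over the 4 arrays, stood for the gene. By this rule 49 of the 50 listed genes were measured, out of 18193 genes with such a probe set. The remaining one, Mrto4, was not measured, because its probe set also names pseudogenes. RNA came from CD4+CD25+ T-cells of C57Bl/6 mice aged 6 to 12 weeks that had received the superagonistic CD28 antibody D665 (CD28SA) intraperitoneally. Cells were taken from lymph nodes on day 3, kept overnight with antibodies to CD3 at 2 µg/ml and to CD28 at 5 µg/ml and with human IL-2 at 200 U/ml, and then sorted by staining for IL-10. There were 2 IL-10+ samples (replicates 1 and 2) and 2 IL-10− samples (replicates 3 and 4), with 1 array each. The labels do not say whether the samples came from separate mice, cultures or sorts, so the p-values cover no more than the variation among these 4 samples, which could be technical. Both groups had received the antibody and the overnight stimulation, and no sample of unstimulated cells belongs to the comparison.

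A ribosome starts as a long precursor RNA that RNA polymerase I copies from repeated genes in the nucleolus, while RNA polymerase III makes the small ribosomal RNA outside it. Small nucleolar ribonucleoproteins (snoRNPs), each built on a guide RNA, then mark the precursor: box C/D particles methylate ribose and box H/ACA particles turn uridine into pseudouridine. Large assemblies cut and fold the precursor into the small and the large subunit, which leave the nucleus for their last trimming. T-cells enlarge their nucleoli and raise ribosome production when they are activated and begin to divide.

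Values are given on the log2 scale of the deposited table, and a difference is the IL-10+ mean minus the IL-10− mean. The table does not state the base of its logarithm. If it were the natural one, every difference and fold given here would be an understatement, with the same calls at an adjusted p under 0.05. A gene was called higher or lower where limma's moderated test gave a Benjamini-Hochberg adjusted p under 0.05 over 45037 probe sets, and "fell" and "rose" refer to such calls, in IL-10+ samples relative to IL-10− samples. An exact permutation test of 2 against 2 samples cannot give a two-sided p below 0.333.

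The replicate arrays of a group correlated at 0.998 (IL-10+) and 0.996 (IL-10−) over all probe sets. Il10 itself read 12.02 and 12.00 in the IL-10+ samples against 10.41 and 10.37 in the IL-10− samples. The 10 markers of T-cells and regulatory T-cells all had mean values of at least 8.97, and 3 of them rose while 3 fell. Those that rose were Ctla4 (0.87), Cd4 (0.51) and Cd3g (0.41). The 3 that fell were transcription factors of regulatory T-cells: Foxp3 (−0.72), Ikzf4 (−0.58) and Ikzf2 (−0.55). Other measures separated the groups too. Of 16 B cell and plasma cell markers, 11 fell and 0 rose, and the log2 of their summed level was 12.70 and 12.65 in IL-10+ samples against 14.13 and 14.25 in IL-10− samples. The immunoglobulin heavy chain gene Igha read 7.18 and 7.24 against 12.58 and 12.74 and fell by 5.45, the plasma cell genes Jchain and Mzb1 both fell by 2.75, the B cell coactivator Pou2af1 fell by 2.10 and Ms4a1, which encodes CD20, fell by 1.22. Pax5, Ebf1, Cr2 and Tnfrsf17, with mean values between 5.90 and 6.16, and Fcer2a (−0.49) were not called. Of 10 myeloid markers 3 rose, Cd68 (0.89), Cd14 (0.49) and Csf1r (0.30), and S100a8 fell (−0.24). The log2 of their summed level was 10.85 and 10.82 in IL-10+ samples against 10.35 and 10.34 in IL-10− samples. Among NK cell and CD8 T-cell markers Eomes, Tyrobp and Cd8b1 fell and 0 rose, and of the stroma and endothelium markers Pecam1 rose (0.69). Spiked-in poly-A control RNAs had a median difference of 1.22 at their 5′ probe sets, 0.82 in the middle and 0.04 at their 3′ probe sets, so the 5′ parts of these control RNAs gave less signal on the IL-10− arrays. Control probe sets for the mouse messenger RNAs of beta-actin, Gapdh and the transferrin receptor also had their largest differences at the 5′ end. Those of beta-actin were 1.12 at the 5′ end, 0.90 in the middle and 0.40 at the 3′ end, and those of Gapdh 0.88, 0.33 and 0.02. Those of the transferrin receptor were 1.59, 1.12 and 1.15. Pyruvate carboxylase did not have its largest difference at the 5′ end: it had 0.22 there, 0.20 and 0.39 in the middle and −0.29 at the 3′ end. The part of the cell type markers and of the 5′ signal in the differences below was not tested.

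Most ribosome biogenesis genes had lower values in IL-10+ samples. Of the 49 measured members, 35 fell, 2 rose (Nop16 and Noc3l) and 12 did not pass the test, and 46 had a negative difference. Over all genes, 22.9% were called lower and 8.37% higher. In bulk samples such as these, fewer cells of a type and less RNA per cell cannot be told apart. The median difference of the members was −0.40, against −0.02 over all genes, and the median value of the members was 8.35 and 8.32 in the IL-10+ samples and 8.71 and 8.79 in the IL-10− samples. All genes with values like those of the members were also more often called lower than higher. Among genes with a mean from 7 to 9, 40.6% were called lower and 12.3% higher, and 21 of the 30 members in that range fell while 2 rose. For genes with a mean of 9 or more the shares were 45.5% and 14.7%, and 13 of the 17 members there fell and 0 rose. The medians over all genes in these ranges were −0.15 and −0.19, and those of the members were −0.40 and −0.45. Both members with a mean under 7 were RNA polymerase subunits, and 1 of them fell.

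The 2 groups did not overlap for 43 members that were lower and 3 that were higher in IL-10+ samples, against 37.8% and 26.6% of all genes. Such genes were more common at the levels of the members. Among the 5002 genes with a mean from 7 to 9, 2875 were lower without overlap and 1157 higher, and 26 of the 30 members there were lower. Of the 3530 with a mean of 9 or more, 2176 were lower and 842 higher, and 16 of the 17 members there were lower. At the stricter limit of at least 2-fold and an adjusted p under 0.001, 2 members were lower (Nop56 and Nop10) and 0 higher, and 0.792% of all genes were lower and 0.462% higher. These counts hold for brightest probe sets. Among dimmer probe sets of the members, those that passed the limit were higher in Ncl (1.19) and Ddx10 (1.0) and lower in Nop10 (−1.12) and Ncl (−1.01). At that limit 73 of the 5002 genes with a mean from 7 to 9 were lower and 37 higher. For the 3530 genes with a mean of 9 or more the counts were 52 and 44. The balance of calls over all genes depended on how the arrays were centred: lower calls made up 73.3% of all calls as deposited, 84.2% after median centring and 43.8% after centring on the bright probe sets, which moved the median of all genes to 0.10. For the members the same shares were 94.6%, 97.7% and 90.3%. After centring on the bright probe sets 28 members were lower and 3 higher, and the median of the members was −0.28.

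**Figure D1:**
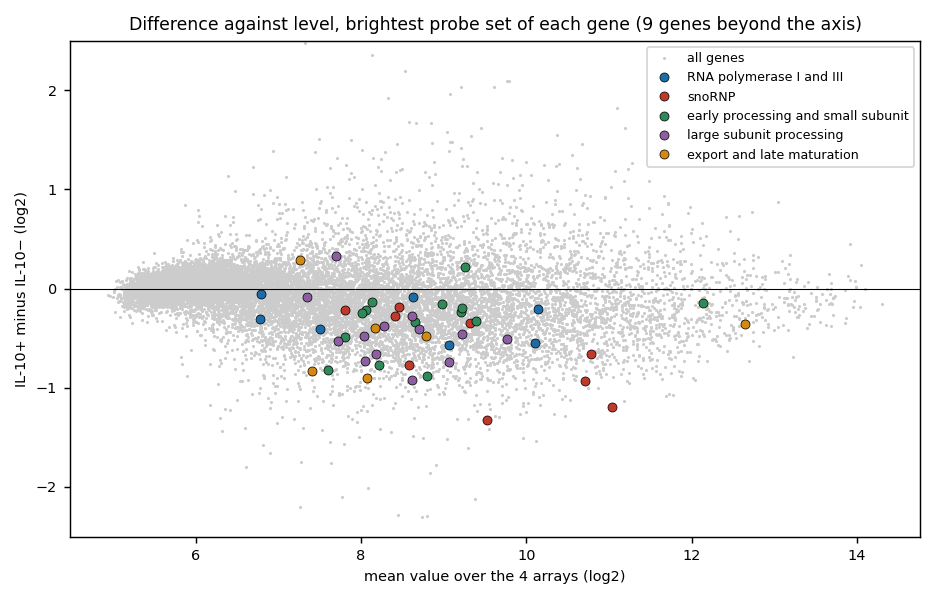
Difference between IL-10+ and IL-10− samples (vertical axis, log2) against the mean value over the 4 arrays (horizontal axis, log2) for the brightest probe set of each gene. Grey points are all 18193 genes, of which 9 lie beyond the axis, and coloured points are the 49 members by step: 46 members lie below 0, with Nop56 (−1.32) and Nop10 (−1.20) lowest.

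Of the 7 genes for RNA polymerases I and III, 4 fell, 0 rose and 3 did not pass, with a median difference of −0.31. The 57.1% that fell, a share of few genes, stand against 40.6% of all genes with a mean from 7 to 9 and 45.5% of those with 9 or more. Taf1d, a subunit of the selectivity factor that brings RNA polymerase I to its promoter, read 8.75 and 8.82 in the IL-10+ samples and 9.29 and 9.42 in the IL-10− samples. This difference of −0.57 ± 0.07 (SE, n = 2 and 2; adjusted p = 0.00092, limma) was the largest of the step by brightest probe set, and both IL-10+ samples were below both IL-10− samples. That probe set carries the suffix x, a type that can bind related transcripts. Without the suffixes x and s Taf1d had a difference of −0.33, less than that of Polr1a, and with its 7 probe sets averaged it had −0.19. The other 3 that fell were subunits of RNA polymerase I itself. Polr1c, which RNA polymerase III also contains, fell by 0.55, the catalytic subunit Polr1a fell by 0.40 and its partner Polr1b fell by 0.31. Polr1c's next probe set without the suffix s had a difference of −0.17 that did not pass. The Polr1b call was lost without IL-10+ replicate 1 and without IL-10+ replicate 2.

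Neither RNA polymerase III subunit passed: Polr3k had a difference of −0.21 (adjusted p = 0.12). Polr3g was the closest to 0 of the step, with 6.78 and 6.73 in IL-10+ samples and 6.71 and 6.92 in IL-10− samples. Its groups overlapped, and the difference was −0.06 ± 0.08. Ubtf, the factor that activates the ribosomal RNA genes, had overlapping values of 8.58 and 8.58 against 8.58 and 8.75.

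The snoRNP genes held the largest differences: 8 of 9 fell, 0 rose, and the median was −0.66. This is 88.9% lower, against 40.6% and 45.5% of all genes in the same 2 level ranges. Nop56, a core protein of box C/D particles, read 8.87 and 8.86 in the IL-10+ samples and 10.10 and 10.28 in the IL-10− samples. The groups lay far apart, and the difference of −1.32 ± 0.08 (adjusted p = 3.1e-05) made the IL-10− level 2.5-fold that of IL-10+ samples. This probe set carries the suffix s, and the other one of Nop56 fell by 0.65 (1.57-fold), short of the stricter limit. Nop10, a small protein of box H/ACA particles, read 10.42 and 10.45 against 11.63 and 11.64, a difference of −1.20 ± 0.06 (adjusted p = 2.3e-05) or 2.29-fold. In both groups its replicates were nearly equal. Nhp2, which binds the guide RNA in the same particle, read 10.21 and 10.28 against 11.14 and 11.21, and fell by 0.93 ± 0.07 (adjusted p = 6.8e-05), again with no overlap.

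The genes for the proteins of 1 particle did not have equal differences in their brightest probe sets. In the box H/ACA core, Nop10 and Nhp2 fell by 1.20 and 0.93, while Gar1 fell by 0.34 and the pseudouridine synthase Dkc1 fell by 0.27. In the box C/D core, Nop56 fell by 1.32 and the methyltransferase Fbl by 0.66, while Nop58, the partner of Nop56, was the closest to 0 of the step. Nop58 read 8.35 and 8.39 against 8.55 and 8.56. Its groups did not overlap, yet the difference of −0.18 ± 0.06 did not pass (adjusted p = 0.066). Whether the members of a particle differed from each other was not tested. Rrp9, a protein of the U3 particle that guides early cutting, fell by 0.22. Nolc1, a nucleolar protein that associates with snoRNPs, fell by 0.77 in its brightest probe set. The calls of Rrp9, Dkc1 and Gar1 were each lost when at least 1 of the IL-10+ samples was left out, and that of Rrp9 also without IL-10− replicate 4.

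Early processing and small subunit assembly gave 7 of 14 genes that fell, 0 that rose and 7 that did not pass, with a median of −0.24. The 50% called lower were close to the 40.6% and 45.5% of all genes at such levels. Heatr1, a member of the complex that joins ribosomal RNA transcription to its first processing, had the largest difference. Its values were 8.38 and 8.32 in the IL-10+ samples and 9.19 and 9.29 in the IL-10− samples, and the difference was −0.89 ± 0.07 (adjusted p = 9.3e-05). Both IL-10+ samples were low, but the other probe sets of this gene went the opposite way, as given below. Utp20, a scaffold of the small subunit processome, fell by 0.83. Of the genes for the same transcription-linked complex as Heatr1, Wdr75 fell by 0.77 and Wdr43 by 0.34, while Utp15 had a difference of −0.22 that did not pass.

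Rcl1, a protein of the processome related to RNA cyclases, fell by 0.49. Imp3 and Imp4, which bind the U3 snoRNA and help it pair with the precursor, fell by 0.33 and 0.24. The calls of Imp3 and Imp4 were lost without IL-10+ replicate 1, and those of Imp4 and Wdr43 without IL-10+ replicate 2. Nop14, a processome component, was the closest to 0, with 8.07 and 8.06 against 8.18 and 8.22 and a difference of −0.14 ± 0.06. Its groups did not overlap, but the adjusted p was 0.15. Ncl, the abundant nucleolin, had a difference of −0.14 in its brightest probe set, and Utp18, Noc4l and Ddx10 lay between −0.25 and −0.16. Ddx21, an RNA helicase, was the only member of the step with a positive difference, with 9.42 and 9.31 in IL-10+ samples and 9.11 and 9.18 in IL-10− samples. That difference of 0.22 ± 0.07 just missed the test (adjusted p = 0.051), and without IL-10− replicate 4 it passed. The other probe set of Ddx21, nearly as bright, just missed it in the opposite direction at −0.27 ± 0.09 (adjusted p = 0.05004), so no direction can be given for this gene. Without IL-10− replicate 3, Utp15, Utp18 and Ddx10 were called lower, and Noc4l was without IL-10− replicate 4.

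Among the genes for large subunit processing, 11 of 13 fell, 1 rose and 1 did not pass, and the median was −0.48. The share that fell was 84.6%, against 40.6% and 45.5% of all genes in the 2 level ranges. Gnl3, the nucleolar GTPase nucleostemin, read 8.15 and 8.17 in the IL-10+ samples and 9.07 and 9.09 in the IL-10− samples. The replicates were nearly equal in both groups, and the difference was −0.92 ± 0.06 (adjusted p = 5.5e-05). Rrs1, which helps to bring the small ribosomal RNA of the large subunit into the particle in yeast, fell by 0.74, Rrp1b by 0.73, and Nop2, an RNA methyltransferase, by 0.66. The genes for the 3 proteins of the PeBoW complex, which is needed for large subunit maturation, all fell in their brightest probe sets: Wdr12 by 0.48, Bop1 by 0.38 and Pes1 by 0.27. Their other, dimmer probe sets were not called, at 0.02 and −0.12 for Wdr12, 0.09 for Bop1 and −0.12 for Pes1. The Pes1 call was lost without IL-10+ replicate 1 and without IL-10− replicate 4.

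Smaller differences in the same step were found for Ppan (−0.53), Nip7 (−0.51), the GTPase Gtpbp4 (−0.45) and the helicase Ddx18 (−0.41), all of which fell. Ddx18 was not called without IL-10+ replicate 1. Nop16 rose, with 7.75 and 7.98 in the IL-10+ samples against 7.58 and 7.49 in the IL-10− samples. The groups did not overlap, but IL-10+ replicate 2 was the higher one, and the difference of 0.33 ± 0.09 (adjusted p = 0.025) was no longer called without it. The other probe set of Nop16 was not called, at −0.07. Ftsj3, an RNA methyltransferase of the nucleolus, was the closest to 0: it read 7.29 and 7.32 against 7.55 and 7.23, and the groups overlapped with a difference of −0.09 ± 0.10. The difference was 0.07 without IL-10− replicate 3 and −0.25, called lower, without IL-10− replicate 4.

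All 6 genes of export and late maturation passed the test, 5 lower and 1 higher, with a median of −0.44. Lower calls made up 83.3% of these few genes, against 40.6% and 45.5% of all genes in the 2 level ranges. Noc2l, whose yeast counterpart moves with large subunit precursors out of the nucleolus, read 7.65 and 7.59 in the IL-10+ samples and 8.45 and 8.59 in the IL-10− samples. The groups were well apart at −0.90 ± 0.07 (adjusted p = 0.00012). Noc3l, the partner of Noc2 in yeast, went the opposite way: it read 7.34 and 7.49 against 7.08 and 7.16, and rose by 0.29 ± 0.08 (adjusted p = 0.022). Noc3l had the smallest difference of the step, and like Nop16 it was not called without IL-10+ replicate 2.

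Rrp12, which takes part in subunit export in yeast, fell by 0.83, and Bysl, a small subunit maturation factor, by 0.48. Nob1, the nuclease that makes the final cut at the end of the small subunit RNA, fell by 0.40, a call that was lost without IL-10+ replicate 1. Npm1, nucleophosmin, was the brightest member with a mean of 12.64. It read 12.42 and 12.49 in the IL-10+ samples and 12.80 and 12.84 in the IL-10− samples, and fell by 0.36.

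**Figure D2:**
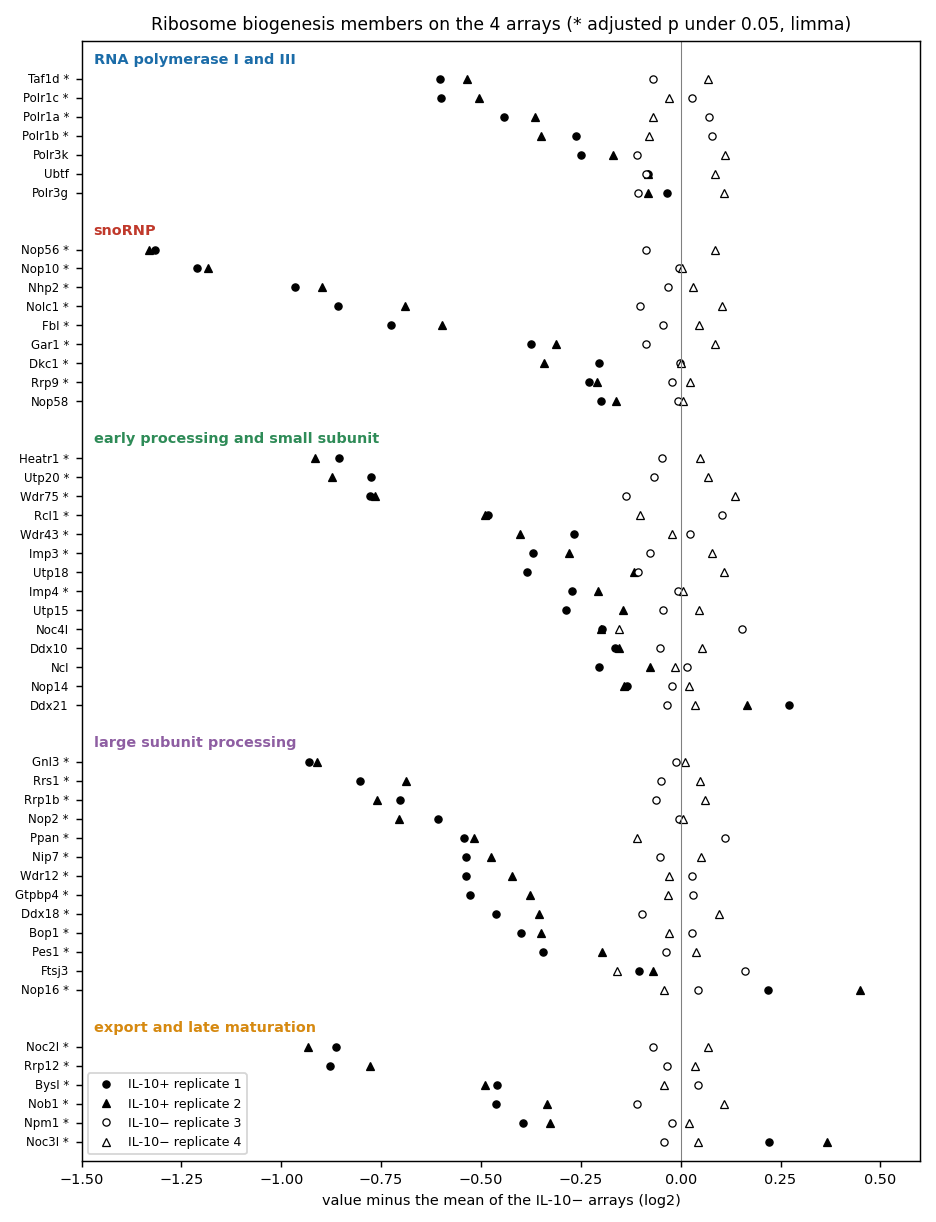
Value of each of the 49 members on each array minus the mean of the IL-10− arrays (horizontal axis, log2), by step and ordered by difference. Filled symbols are IL-10+ samples, open symbols IL-10− samples, and an asterisk marks an adjusted p under 0.05: the filled symbols lie left of the open ones for 43 members and right of them for 3.

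The other probe sets gave a check on these values. The 49 members had 108 probe sets in all, of which 59 were called lower, 10 higher and 39 not called, against 16.2% lower and 13.6% higher over all probe sets. The 59 dimmer probe sets differed from the brightest ones: 24 were called lower and 8 higher, with a median of −0.17, where the brightest had 35 lower and 2 higher. For the 3 genes with the largest differences the dimmer probe set also fell. That of Nop10 had a difference of −1.12, that of Nhp2 −0.80 and that of Nop56 −0.65.

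Of 34 members with several probe sets, 5 had probe sets called in opposite directions, which is 14.7% of them, against 12.0% of the 9010 genes with several probe sets. Ncl had the widest gap. Its brightest probe set, not called, read 12.01 and 12.13 in the IL-10+ samples and 12.22 and 12.19 in the IL-10− samples. The next one read 10.97 and 11.07 against 10.09 and 9.56, and was called higher by 1.19 ± 0.15. Another read 7.61 and 7.68 against 8.55 and 8.75, and fell by 1.01 ± 0.08. No single direction can be given for Ncl.

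In Heatr1 the brightest probe set fell by 0.89, while the other 2, at mean values of 6.23 and 6.17, were called higher by 0.60 and 0.44. The mean over its 3 probe sets had a difference of 0.05 that did not pass. In Nolc1 the brightest read 8.11 and 8.28 against 8.86 and 9.07, and a dimmer one read 7.47 and 7.31 against 6.90 and 6.70, so that the first fell by 0.77 and the other was higher by 0.59. The remaining probe set of Nolc1 fell by 0.75.

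Gtpbp4 had 2 probe sets that fell, by 0.45 and 0.48, and a dimmer one with 8.44 and 8.48 against 7.86 and 7.56 that was called higher by 0.75. Its brightest read 8.92 and 9.08 against 9.48 and 9.42. Among the 7 probe sets of Taf1d, 3 were called lower and 1, with a mean of 6.39, was called higher by 0.28. Of members whose brightest probe set was not called, Ubtf and Ddx10 each had a dimmer one called higher, by 0.91 and 1.0, and the mean over the probe sets was then called higher in both. Noc4l, Utp15 and Polr3k, also not called in their brightest, had dimmer probe sets that fell: 3 in Noc4l, by 0.40, 0.96 and 0.58, 1 in Utp15, by 0.49, and 1 of the 5 in Polr3k, by 0.31. The averaged probe sets of Noc4l (−0.53) and Utp15 (−0.35) were called lower. With the probe sets of each gene averaged, 5 of the members that fell were no longer called: Heatr1, Gtpbp4, Polr1a, Bop1 and Dkc1. The table gives no positions of probe sets along the transcripts, and the part of the weaker 5′ signal of the control RNAs on the IL-10− arrays in these opposite calls was not tested.

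**Figure D3:**
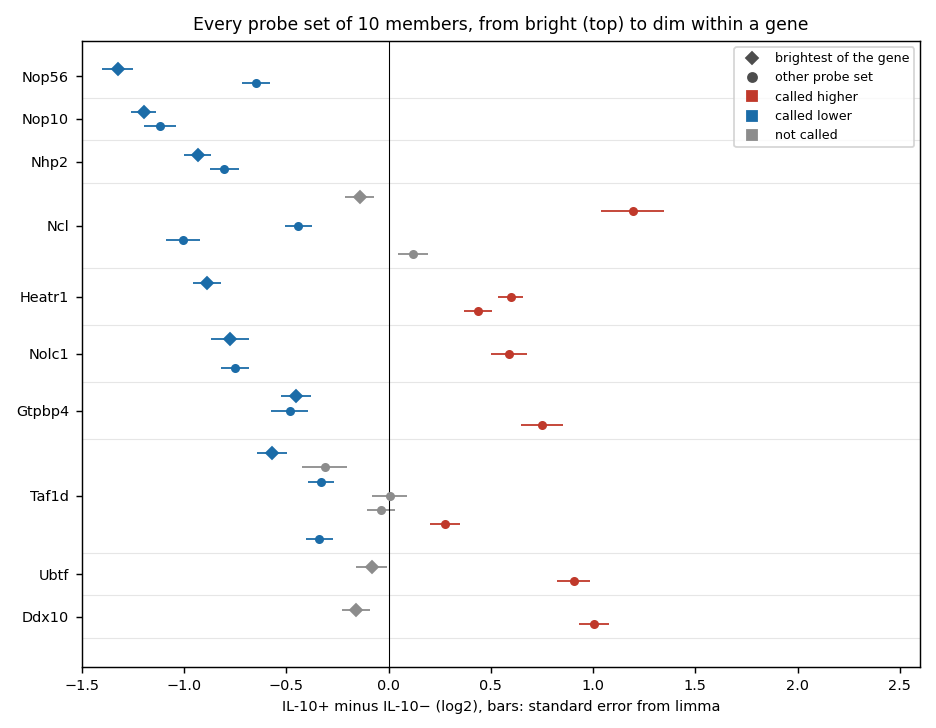
Difference of every probe set (horizontal axis, log2, IL-10+ minus IL-10−, with limma's standard error) for 10 members, with the brightest of each gene as a diamond. Nop56, Nop10 and Nhp2 are lower in every probe set, while Ncl, Heatr1, Nolc1, Gtpbp4 and Taf1d have probe sets called in both directions and the dimmer probe sets of Ubtf and Ddx10 are called higher.

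Of 139 further genes of the same pathway that were measured, 74 fell, 9 rose and 56 did not pass, with a median of −0.26. The 53.2% that fell stand against 40.6% of all genes with a mean from 7 to 9 and 45.5% of those with a mean of 9 or more. The further snoRNP genes, mostly assembly factors, had 8 of 10 lower, 0 higher and a median of −0.65. The largest of these were Tcof1, a nucleolar protein that acts in ribosomal RNA transcription and modification, which fell by 0.98, and Naf1, an assembly factor of box H/ACA particles, which fell by 0.88. Of 40 further large subunit genes 25 fell and 2 rose (median −0.35), with Pelp1 (−0.82) and Lyar (−0.70) lowest and Nsa2 (0.29) and Gnl3l (0.27) higher. Of 37 further small subunit genes 14 fell and 1 rose (median −0.14): Tsr1 fell by 0.79 and Bms1, a GTPase of the processome, by 0.76, while Nol11 rose by 0.28. The share of small subunit genes that fell, 37.8%, was no higher than that of all genes at these levels.

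The 28 further genes for RNA polymerases I and III had 16 lower (57.1%) and 3 higher, with a median of −0.30. The RNA polymerase III catalytic subunit Polr3a fell by 0.62 and Maf1, a repressor of RNA polymerase III, fell by 0.55. Polr3f, another subunit of RNA polymerase III, rose by 1.21 (adjusted p = 2.5e-05), and Taf1b, which acts together with Taf1d, rose by 0.61. In the export and late maturation list 4 of 10 fell (40%) and 2 rose, a share of falls below that of all genes of either level range. The export adaptor Nmd3 fell by 0.56 and Zfp622 by 0.47, while the GTPase Lsg1, which releases Nmd3 in yeast, rose by 0.61 and Sbds rose by 0.31.

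The RNA exosome, which trims precursor ends, had 7 of 14 lower (50%) and 1 higher, near the shares of all genes, with Exosc7 (−0.59) and Exosc1 (−0.39) lowest and Exosc3 (0.41) higher. Myc, a transcription factor known to raise ribosome production, read 8.40 and 8.35 in the IL-10+ samples and 8.35 and 8.49 in the IL-10− samples. The groups overlapped, and its difference of −0.04 ± 0.07 did not pass (adjusted p = 0.71). Of the 10 genes of the Myc network, 4 fell (40%, also no more than all genes at these levels) and 1 rose. Mxd4 and Mxd1, which compete with Myc for its partner, fell by 0.59 and 0.38, and Mxi1, of the same family, rose by 0.43.

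Ribosomal proteins themselves are the cargo of this pathway. Of 46 cytosolic ones 18 fell and 2 rose, with a median of −0.16, and of 76 mitochondrial ones, whose assembly does not use the nucleolus, 51 fell and 0 rose, with a median of −0.36. The 67.1% of mitochondrial ribosomal protein genes called lower were close to the 71.4% of the members, while the 39.1% of cytosolic ones were below the 45.5% of all genes with a mean of 9 or more. Those genes do not match the cytosolic list in level. Its median value was 13.5, near the highest of any gene (14.3), and its lowest mean was 5.67. The 2 that rose, Rps16 and Rpl27a, had means of 5.67 and 8.50, far below that median. The largest falls were also of genes below it: Rpl12 (−0.98), Rpl37 (−0.64) and Rpl14 (−0.64) had means of 6.99, 10.81 and 8.22. Other falls were of bright genes, such as Rpl35 (−0.38) with a mean of 13.68.

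**Figure D4:**
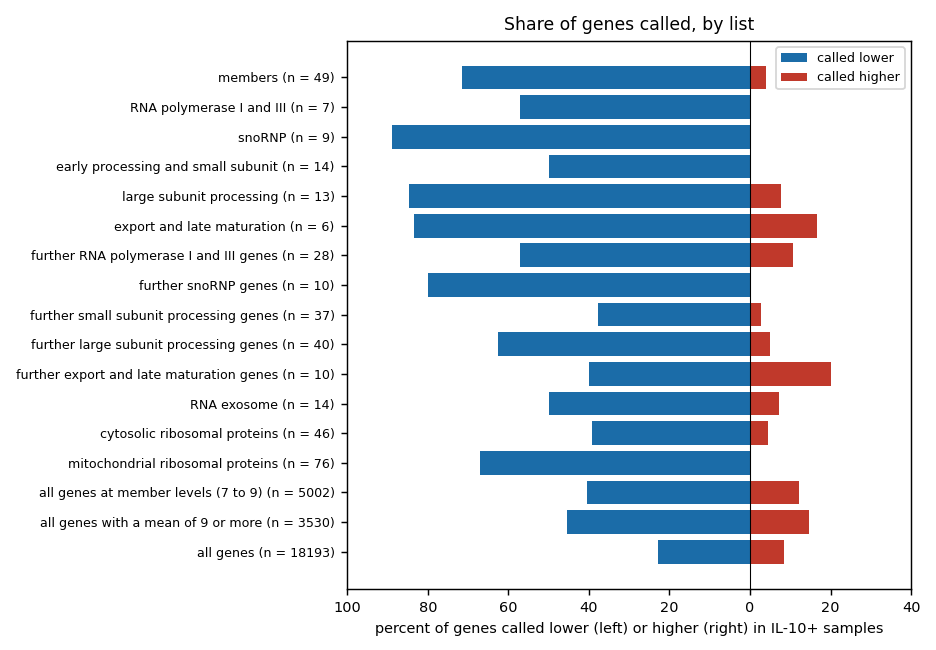
Percent of the genes in each list that were called lower (left) or higher (right) in IL-10+ samples, with the number of measured genes in each list. The snoRNP members (88.9% lower) have the longest bar to the left and the further snoRNP genes reach 80.0%, against 40.6% and 45.5% over all genes at similar levels.

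The DNA just upstream of the transcription start was compared between the members and all genes, since many members moved together and Myc binds the E-box CACGTG. RefSeq promoter sequences of build GRCm38.p6 were at hand for 45 of the 50 members, with 54 start sites, and the 250 bases before each start were read on both strands. CACGTG, which is its own reverse complement, was found before 3 of the 54 starts (5.56%), in Imp4, Nop2 and Utp18, against 6.02% of all 32851 starts and 6.63% of those of protein-coding genes. Other motifs were looked up after the values were known and are given as a description. CCGGAAG or CTTCCGG, the core bound by ETS factors, was found before 10 starts (18.5%), against 8.98% for protein-coding genes. GGGCGG or CCGCCC, the GC box, was found before 35 (64.8%, against 42.6%), and TATAAA or TTTATA before 3 (5.56%, against 11.6%). The windows of the members had a median GC content of 59.8%, against 55.6% for protein-coding genes. Among the starts of the members that fell, 20.6% had the ETS core, 55.9% the GC box, 5.88% the E-box and 8.82% the TATA box. Their median GC content was 57%, nearer to that of protein-coding genes.

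The 130 bases before the start are shown for the 6 members with the largest falls and for the 2 members that fell and have an E-box, to show what these promoters do and do not share. They are written 5′ to 3′ toward the gene, with the 4 motifs just named, and their reverse complements, in capitals.
Nop56, chr2:130274282-130274411, plus strand: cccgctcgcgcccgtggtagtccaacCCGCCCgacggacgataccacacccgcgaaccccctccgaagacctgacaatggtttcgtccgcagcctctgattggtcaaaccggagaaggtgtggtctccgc
Nop10, chr2:112261796-112261925, plus strand: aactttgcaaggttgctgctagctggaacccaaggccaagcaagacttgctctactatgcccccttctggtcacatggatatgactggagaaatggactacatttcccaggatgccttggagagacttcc
Nhp2, chr11:51619643-51619772, plus strand: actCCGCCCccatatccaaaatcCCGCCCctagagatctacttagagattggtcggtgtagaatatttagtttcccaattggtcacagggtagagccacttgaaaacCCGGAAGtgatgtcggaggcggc
Gnl3, chr14:31019132-31019261, minus strand: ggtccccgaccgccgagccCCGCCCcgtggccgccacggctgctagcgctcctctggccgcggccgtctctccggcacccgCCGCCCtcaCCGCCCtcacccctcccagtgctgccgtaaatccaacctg
Noc2l, chr4:156235885-156236014, plus strand: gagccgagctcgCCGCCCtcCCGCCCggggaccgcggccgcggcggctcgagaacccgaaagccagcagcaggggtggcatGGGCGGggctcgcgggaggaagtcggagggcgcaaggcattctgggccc
Heatr1, chr13:12395245-12395374, plus strand: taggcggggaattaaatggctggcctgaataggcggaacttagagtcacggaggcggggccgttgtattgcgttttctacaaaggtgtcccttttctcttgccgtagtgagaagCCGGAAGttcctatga
Imp4, chr1:34439699-34439828, plus strand: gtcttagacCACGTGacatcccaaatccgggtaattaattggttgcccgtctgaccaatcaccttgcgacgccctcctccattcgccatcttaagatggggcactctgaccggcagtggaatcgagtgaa
Nop2, chr6:125131753-125131882, plus strand: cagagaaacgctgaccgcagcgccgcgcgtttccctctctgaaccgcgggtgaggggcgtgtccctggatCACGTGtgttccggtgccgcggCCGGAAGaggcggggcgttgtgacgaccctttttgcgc

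In the 130 bases shown, the 6 promoters with the largest falls shared no single motif. Heatr1 is among them by its brightest probe set only, as its other probe sets were called higher, by 0.60 and 0.44. Nhp2 and Heatr1 carried the ETS core, Nop56, Nhp2, Gnl3 and Noc2l carried at least 1 GC box, and the bases shown for Nop10 held none of the 4 motifs. Nop2, which fell by 0.66, had both an E-box and the ETS core, and Imp4, which fell by 0.24, had the E-box alone. None of the 8 sequences shown had a TATA box. The rest of the 250 bases counted above is not covered by these statements. A match is a run of letters and does not show that a factor binds there.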

How the data were processed

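Total RNA of 2 IL-10+ and 2 IL-10− samples was extracted with Trizol and hybridised to Affymetrix mouse genome arrays. The authors normalized the signals by variance stabilization and deposited a table with 1 value for each probe set on each array, taken here as log2. Variance stabilization compresses the differences of dim probe sets. Leaving out 64 control probe sets, IL-10+ and IL-10− samples were compared over 45037 probe sets with limma 3.58.1 (moderated two-sided test, p-values adjusted by Benjamini-Hochberg) under R 4.3.3, and this step was first tested on simulated data. Gene names came from the platform annotation: 34945 tested probe sets named 1 gene, 932 several and 9160 were not listed. The members, steps, gene lists and tests were chosen with earlier results of these data known. All 49 measured members were accounted for, and values per array were given for the 6 largest called differences in each direction, the largest called difference and the value closest to 0 of each step, and members with opposite probe sets. Myc and the 2 largest calls per further list and direction were also named. A few other values were added after they were seen. The alternatives were quantile normalization, median centring, a filter on dim probe sets, another prior, leaving out each array, the natural log base, an adjusted p under 0.01, other choices of probe set and, chosen after seeing the data, centring on bright probe sets. The number of arrays limits the precision. Python 3.11.15 with matplotlib 3.10.9 made the figures. Flow cytometry and culture experiments were not analysed here.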

Additional observations from a re-analysis of the deposited data

Results flagged for a closer look

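The 5′ probe sets of the spiked-in poly-A control RNAs, which belong to no gene of the mouse, had a median difference of 1.22 between the groups, where the 3′ probe sets of the same RNAs had 0.04. The control probe sets of mouse beta-actin and Gapdh also had larger differences at the 5′ end (1.12 and 0.88) than at the 3′ end (0.40 and 0.02). Of the members with several probe sets, 5 had probe sets called in opposite directions: Ncl, Heatr1, Nolc1, Gtpbp4 and Taf1d. Among transcripts that were in none of the lists, 13 of 17 annotated as hosts of snoRNAs or as snoRNAs were called lower in IL-10+ samples (76.5%, against 22.9% of all genes).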

How the results depend on the processing

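Of the 35 members called lower, 20 were called lower under each of 15 alternatives, and none was called higher under any. The number called lower ran from 27 (adjusted p under 0.01, or without IL-10+ replicate 1) to 43 (median centring). The median difference of the members was −0.28 after centring on bright probe sets, −0.31 with each gene's probe sets averaged, −0.47 after median centring and −0.58 with the values read as natural logs, and from −0.44 to −0.36 when 1 array was left out.

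At an adjusted p under 0.01, 5 snoRNP genes were lower and 0 members were higher, so the large subunit and export steps had 0 higher. Averaging the probe sets gave 1 higher gene in the RNA polymerase step and 1 in early processing, 0 in the large subunit and export steps, and 1 member past the stricter limit, and turned Ubtf (0.41), Ddx10 (0.42), Heatr1 (0.0497) and Ddx21 (−0.0251). Centring on bright probe sets left 4 lower and 1 higher gene in early processing and turned Polr3g (0.0603), Ubtf (0.0359) and Ftsj3 (0.0303). Median centring gave 13 lower genes in early processing, 1 higher member and 0 higher in the export step. Early processing had 1 higher gene, Ddx21, with quantile normalization, a robust prior, only the probe sets at or above the median level, or the brightest probe sets alone. Without probe sets of the suffixes x and s 1 member (Nop10) passed the stricter limit, and 12 did with natural logs. The cause of these changes was not tested.

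Leaving out 1 array gave 0 to 3 higher members, 0 to 1 in early processing, in the large subunit step and in the export step, and turned Ftsj3 (−0.247 to 0.0724), Polr3g (−0.166 to 0.0508) and Ubtf (−0.168 to 0.0046). No paired analysis was possible because the groups share no replicate number. Over all genes, the count of higher calls ran from 816 to 3548 and that of lower calls from 2742 to 5413, against 1523 and 4174.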

Other observations

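The snoRNA host transcripts, long noncoding RNAs whose introns release the guide RNAs of snoRNPs, were looked up by their annotated names after values of some of them had been seen. Of 17 such transcripts 13 fell and 0 rose, with a median of −0.65, and 4 (Snhg7, Snhg11, Snhg14 and Snhg18) lay between 0.00 and 0.15 and were not called. The 76.5% that fell stand against 22.9% of all genes, 40.6% of those with a mean from 7 to 9 and 45.5% of those with 9 or more. Snhg1 read 9.65 and 9.76 in the IL-10+ samples and 10.83 and 11.11 in the IL-10− samples, and fell by 1.27 ± 0.10 (limma, adjusted p = 0.0001). Snhg12 fell by 1.0, and Gas5, the brightest of these transcripts, read 11.18 and 11.20 against 11.97 and 12.13 and fell by 0.86. Snhg6 fell by 0.88, Snord104 by 0.87, Snhg8 by 0.80 and Snhg3 by 0.78. Signal of host and guide RNA cannot be told apart here.

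The array also has control probe sets for the ribosomal RNA of the small subunit. The one at the 3′ end read 7.97 and 8.15 in the IL-10+ samples against 10.10 and 10.38 in the IL-10− samples, the middle one 7.82 and 8.16 against 8.81 and 9.0, and the one at the 5′ end 8.03 and 8.49 against 7.77 and 7.82. The 3 probe sets did not go the same way, and they are given as values only.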
